A study of Mus musculus with 10 samples.

Results

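Orphan nuclear receptors are members of the nuclear receptor family for which no ligand was known when they were found. The 8 genes described here encode those that are known to activate or repress Pou5f1, the gene of the transcription factor Oct4, when pluripotent cells differentiate under retinoic acid: Nr5a2, Nr0b1, Nr6a1, Nr2c1, Nr2c2, Nr2f1, Nr2f2 and Nr2f6. They were taken by symbol, and all 8 were found among the 52636 gene identifiers counted. RNA was sequenced from E14 cells, a widely used line of mouse embryonic stem cells, grown on gelatin in medium with LIF and inhibitors of MEK and GSK, then moved to medium without LIF and these inhibitors and given retinoic acid at a labelled dose of 2 µM for 24 h. Unedited cells (WT) were set against cells from which 1 site bound by CTCF, a protein that shapes chromatin loops, had been removed near the HoxA cluster (CBE-KO), with 2 libraries per group. All 4 libraries came from treated cells, so they show the receptors with and without the element under retinoic acid and not the response to retinoic acid itself. Whether CBE-KO was 1 clone or several is not given in the sources used here.

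The Pou5f1 promoter holds a hormone response element close to its start, where receptors of several subfamilies compete. Nr5a2 (LRH-1) activates the gene there and in its enhancer, Nr6a1 (GCNF) shuts it down and brings in DNA methylation, and the COUP-TF proteins (Nr2f1, Nr2f2 and the related Nr2f6) are repressors that appear as embryonal carcinoma cells respond to retinoic acid. Nr0b1 (DAX1) has no classical zinc-finger DNA-binding domain and acts through other proteins, among them Nr5a2 and Oct4. Nr2c1 and Nr2c2 (TR2 and TR4) are close relatives that bind DNA as homodimers or paired with each other.

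Most of these receptors read copies of the core motif AGGTCA, alone or repeated. The stretches from 250 bases before to 50 bases after an annotated start are shown for Pou5f1, for the receptor genes with the largest fall (Nr0b1) and the largest rise (Nr2f1), and for Nr5a2. They are RefSeq sequences on GRCm38, 5′ to 3′ along each gene, with capitals marking AGGTCA or GGGTCA on either strand. Pou5f1 lies on the plus strand at chr17:35505782-35506081, Nr0b1 on the plus strand at chrX:86191525-86191824, Nr5a2 on the minus strand at chr1:136960399-136960698 and Nr2f1 on the minus strand at chr13:78198824-78199123.
Pou5f1: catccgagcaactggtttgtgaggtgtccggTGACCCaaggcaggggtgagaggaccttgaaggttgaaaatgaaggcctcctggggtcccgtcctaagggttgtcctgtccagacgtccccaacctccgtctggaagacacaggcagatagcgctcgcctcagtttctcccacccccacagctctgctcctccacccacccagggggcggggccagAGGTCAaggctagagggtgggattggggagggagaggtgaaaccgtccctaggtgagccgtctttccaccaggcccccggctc
Nr0b1: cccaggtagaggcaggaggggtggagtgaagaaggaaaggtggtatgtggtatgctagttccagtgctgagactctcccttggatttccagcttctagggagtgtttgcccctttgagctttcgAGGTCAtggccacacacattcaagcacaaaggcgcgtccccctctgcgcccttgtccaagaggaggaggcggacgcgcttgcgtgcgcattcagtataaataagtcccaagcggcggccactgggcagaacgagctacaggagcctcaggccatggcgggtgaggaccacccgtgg
Nr5a2: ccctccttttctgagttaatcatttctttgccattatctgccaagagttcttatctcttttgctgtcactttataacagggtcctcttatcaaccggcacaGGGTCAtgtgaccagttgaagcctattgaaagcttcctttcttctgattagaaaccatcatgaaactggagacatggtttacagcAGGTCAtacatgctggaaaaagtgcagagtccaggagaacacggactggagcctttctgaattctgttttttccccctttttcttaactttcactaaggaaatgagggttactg
Nr2f1: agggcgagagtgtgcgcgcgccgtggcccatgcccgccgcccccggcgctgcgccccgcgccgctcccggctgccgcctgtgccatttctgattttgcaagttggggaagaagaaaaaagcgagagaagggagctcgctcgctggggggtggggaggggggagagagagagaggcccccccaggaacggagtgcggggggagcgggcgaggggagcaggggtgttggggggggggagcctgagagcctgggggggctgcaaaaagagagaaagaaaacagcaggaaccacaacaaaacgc
In the Pou5f1 stretch, an AGGTCA begins 33 bases before the start, and a GGGTCA on the other strand begins 219 bases before it. Nr0b1 has 1 AGGTCA, beginning 126 bases before its start. Nr5a2 has an AGGTCA beginning 64 bases before and a GGGTCA 149 bases before. The Nr2f1 stretch has neither.

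RefSeq gave 11 such stretches for the 8 receptor genes, and 4 of the 11 held AGGTCA or GGGTCA: those of Nr0b1, Nr2f6, 1 of 2 for Nr5a2 and 1 of 2 for Nr6a1, which held AGGTCA 2 times on the strand opposite the gene. By motif, AGGTCA was in a stretch of Nr0b1, Nr5a2 and Nr6a1, and GGGTCA in a stretch of Nr2f6 and Nr5a2. Among all 32851 stretches of this length, 16.3% held AGGTCA and 13.7% held GGGTCA on either strand. The share of all stretches with at least 1 of these motifs was not counted, so the 4 of 11 has no matching background. None of the stretches of the receptors or of Pou5f1 held the direct repeat AGGTCAAGGTCA, found in 2 stretches of all, or the extended core motif TCAAGGTCA, found in 0.423% of them. Both longer motifs contain AGGTCA. Such matches are descriptions of the letters and not evidence of binding.

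Library totals ranged from 14108038 to 15632960 counts, and 3 counts, taken as the floor, corresponded to 0.192 to 0.213 CPM, that is, counts scaled to the library total. The libraries of a group differed by more than sampling noise, with a chi-square statistic per degree of freedom of 3.66 in WT and 2.84 in CBE-KO. They are described only as biological replicates, so p-values rest on the spread between these samples. In the fit the variance of each gene was moderated toward that of all tested genes. The p-values do not measure a spread between clones or lines. Ctcf, the gene of the protein that binds the element, had a log2 fold change of -0.05 ± 0.05 (SE), and loss of a noncoding element cannot be read from gene counts. The lines differed in more than the element. The Y-linked genes Uty, Ddx3y and Eif2s3y had 0 to 6 counts in WT libraries and 267 to 920 in CBE-KO, and effects of the element and of other differences between the lines cannot be told apart.

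Pou5f1 was lower in CBE-KO and still abundant. Its counts were 15841 and 13363 in WT against 13260 and 11859 in CBE-KO, which is 1028 ± 79.7 and 816 ± 1.42 CPM after scaling (SD, n = 2 each). On the log2 scale Pou5f1 fell by 0.33 ± 0.05 (SE; 95% interval -0.44 to -0.23; edgeR adjusted p = 4.71e-05), and both CBE-KO libraries lay below both WT libraries on the CPM scale. It ranged from -0.41 to -0.25 when 1 library was left out, so its size leaned on which WT library was kept.

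Among the 8 receptor genes, Nr0b1 and Nr6a1 were lower in CBE-KO, and Nr2c1, Nr2f1 and Nr2f2 were higher. Nr5a2, Nr2c2 and Nr2f6 did not pass the threshold, which was an adjusted p below 0.05 by the quasi-likelihood test of edgeR over 16005 genes. The 5 of 8 have to be read against a background in which 43.1% of all tested genes passed, 21.6% as higher and 21.5% as lower. Nr2f1 and Nr2f2 passed the expression filter only through their CBE-KO libraries and so had to be higher there to be tested. Of the 6 receptor genes above the filter in both groups, 3 passed, 1 higher and 2 lower, beside 44.2% of the 14323 genes of that kind (21.2% higher and 22.9% lower), so this share is near the background. The CPM of the WT and CBE-KO libraries did not overlap for any of the 8, which held for 70.4% of all tested genes.

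**Figure D1:**
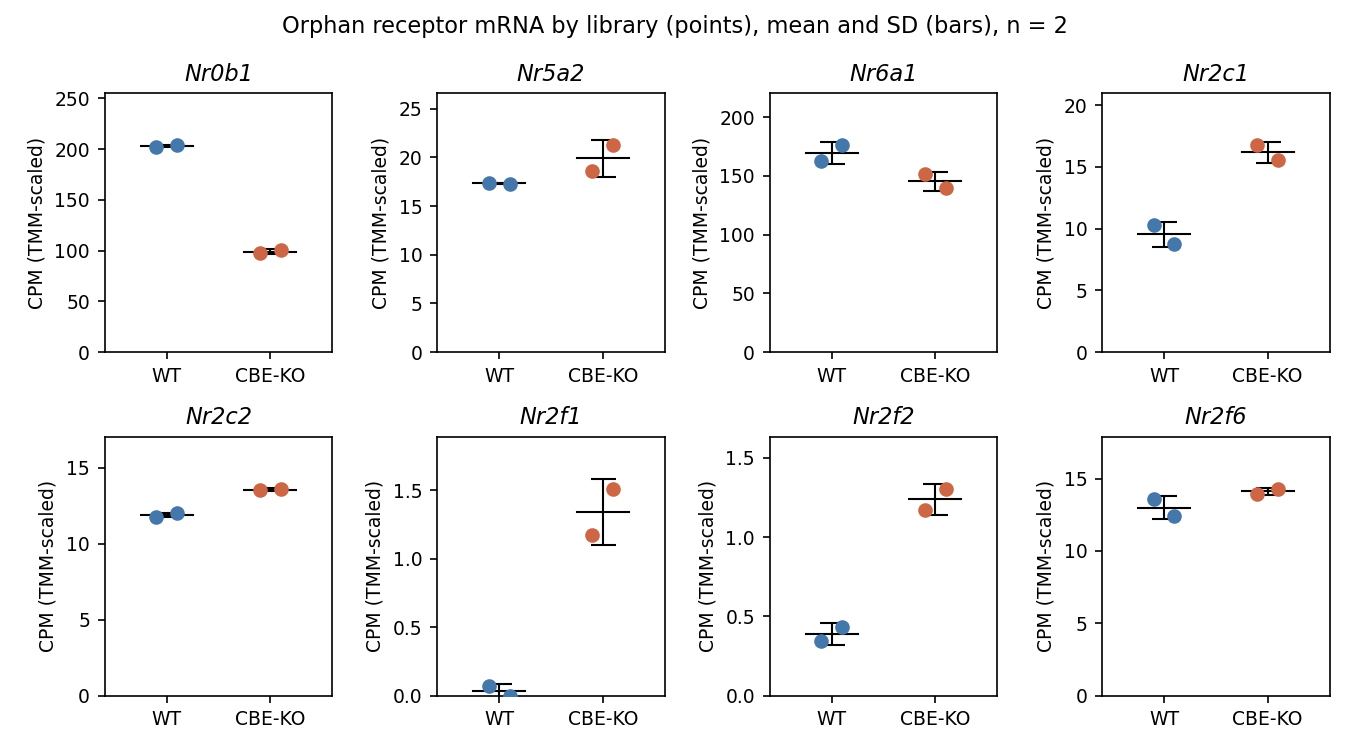
TMM-scaled CPM of the 8 receptor genes in each library (points; blue WT, orange CBE-KO), with the mean and SD as bars, n = 2 per group and a separate axis from 0 for each gene. Nr0b1 sits near 203 CPM in both WT libraries and near 99.0 in CBE-KO, while Nr2f1 and Nr2f2 stay at or below 1.51 CPM in every library.

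No change of Nr5a2, the activator, was detected. It is on chromosome 1 (GRCm38 chr1:136842562-136960448) and its counts were 254 and 238 in WT against 301 and 309 in CBE-KO. These are 17.4 and 17.3 CPM against 18.5 and 21.2 CPM. The CBE-KO libraries lay above WT by little, and they differed more from each other than the WT pair did. The log2 fold change of 0.20 ± 0.11 (SE) had a 95% interval from -0.04 to 0.43 (edgeR adjusted p = 0.177). With library totals in place of TMM scaling it passed, at 0.30 (edgeR adjusted p = 0.0365).

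Nr0b1, whose product partners Nr5a2 and Oct4, had the clearest difference of the receptors. Its gene is on the X chromosome (chrX:86191775-86195947). Its counts were 2957 and 2802 in WT against 1580 and 1463 in CBE-KO, or 202.4 and 204 CPM against 97.4 and 101 CPM. Replicates were close to each other and the groups were far apart. Nr0b1 fell by 1.04 ± 0.05 on the log2 scale (SE; 95% interval -1.14 to -0.93; edgeR adjusted p = 4.30e-11). Its mRNA thus dropped by 51.3%, and no alternative moved the log2 fold change outside -1.06 to -0.93. The other 554 tested genes of the X chromosome had a median log2 fold change of 0.14, and 49.1% of them passed. Of the 3 other tested genes within 1 Mb of Nr0b1, 2 passed, both as higher.

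Nr6a1 encodes the repressor that is most directly tied to the silencing of Pou5f1 during differentiation. It lies on chromosome 2 (chr2:38723369-38926461) and its counts were 2383 and 2422 in WT against 2455 and 2029 in CBE-KO. After scaling these are 163 and 176 CPM against 151 and 139 CPM, so both CBE-KO libraries were lower. The nearest WT and CBE-KO libraries were closer to each other than the WT pair. The log2 fold change was -0.22 ± 0.06 (SE; 95% interval -0.34 to -0.11; edgeR adjusted p = 0.00353). This call rested on CBE-KO replicate 2 and on the scaling: without that library it was -0.16 (edgeR adjusted p = 0.0743), and with library totals -0.12 (edgeR adjusted p = 0.0954). The antisense gene Nr6a1os, which overlaps Nr6a1, had at most 4 counts in any library.

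Nr2c1 rose and its close relative Nr2c2 did not pass. Nr2c1 (chr10:94147542-94197216) was counted 150 and 121 times in WT against 272 and 227 in CBE-KO, or 10.3 and 8.80 CPM against 16.8 and 15.6 CPM. Both CBE-KO libraries were well above both WT libraries. Its log2 fold change was 0.76 ± 0.14 (SE; 95% interval 0.47 to 1.05; edgeR adjusted p = 0.000233), which is 69.6% more mRNA. Nr2c2 (chr6:92091418-92173058) was counted 172 and 165 times in WT against 219 and 198 in CBE-KO, or 11.8 and 12.0 CPM against 13.5 and 13.6 CPM. Its log2 fold change of 0.19 ± 0.13 (SE) had a 95% interval from -0.09 to 0.47 (edgeR adjusted p = 0.266). Nr2c2 overlaps the gene Mrps25, which had 803, 734, 884 and 815 counts in the WT and CBE-KO libraries and a log2 fold change of 0.03 ± 0.07 (SE). Since use of strand is not stated, reads in the shared stretch could not be assigned with certainty.

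The COUP-TF genes were at very low levels. Nr2f1 (chr13:78188971-78198873) was counted 1 and 0 times in WT against 19 and 22 in CBE-KO, so WT lay below the floor of 3 counts and both CBE-KO libraries lay above it. After TMM scaling the higher floor of the WT libraries was 0.218 CPM. Against it the CBE-KO mean of Nr2f1 was at least 6.15-fold higher, at only 1.17 and 1.51 CPM in the libraries. The test of Nr2f1 (edgeR adjusted p = 0.000109) used the counts and not this bound. Both Nr2f1 and Nr2f2 were tested only through CBE-KO, where they had to be higher, so their p-values are not independent support. Nr2f2 (chr7:70351946-70366746) was counted 5 and 6 times in WT against 19 and 19 in CBE-KO, or 0.342 and 0.436 CPM against 1.17 and 1.31 CPM. Its log2 fold change of 1.65 ± 0.50 (SE; 95% interval 0.61 to 2.69; edgeR adjusted p = 0.0122) is uncertain in size. It did not pass in DESeq2 (adjusted p = 0.119), without WT replicate 1 (edgeR adjusted p = 0.0616) or without CBE-KO replicate 2 (edgeR adjusted p = 0.0654). Each of them is overlapped in part by a noncoding gene, A830082K12Rik at Nr2f1 with 0, 0, 1 and 4 counts and B130024G19Rik at Nr2f2 with 0, 0, 0 and 1.

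Nr2f6 was the COUP-TF relative that passed the expression filter in both groups. On chromosome 8 (chr8:71374118-71381967), it was counted 198 and 171 times in WT against 226 and 208 in CBE-KO, or 13.6 and 12.4 CPM against 13.9 and 14.3 CPM. The nearest WT and CBE-KO libraries differed by less than the 2 WT libraries did. Its log2 fold change of 0.12 ± 0.13 (SE) had a 95% interval from -0.15 to 0.39 (edgeR adjusted p = 0.496), so a change beyond that range was not seen at this depth.

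**Figure D2:**
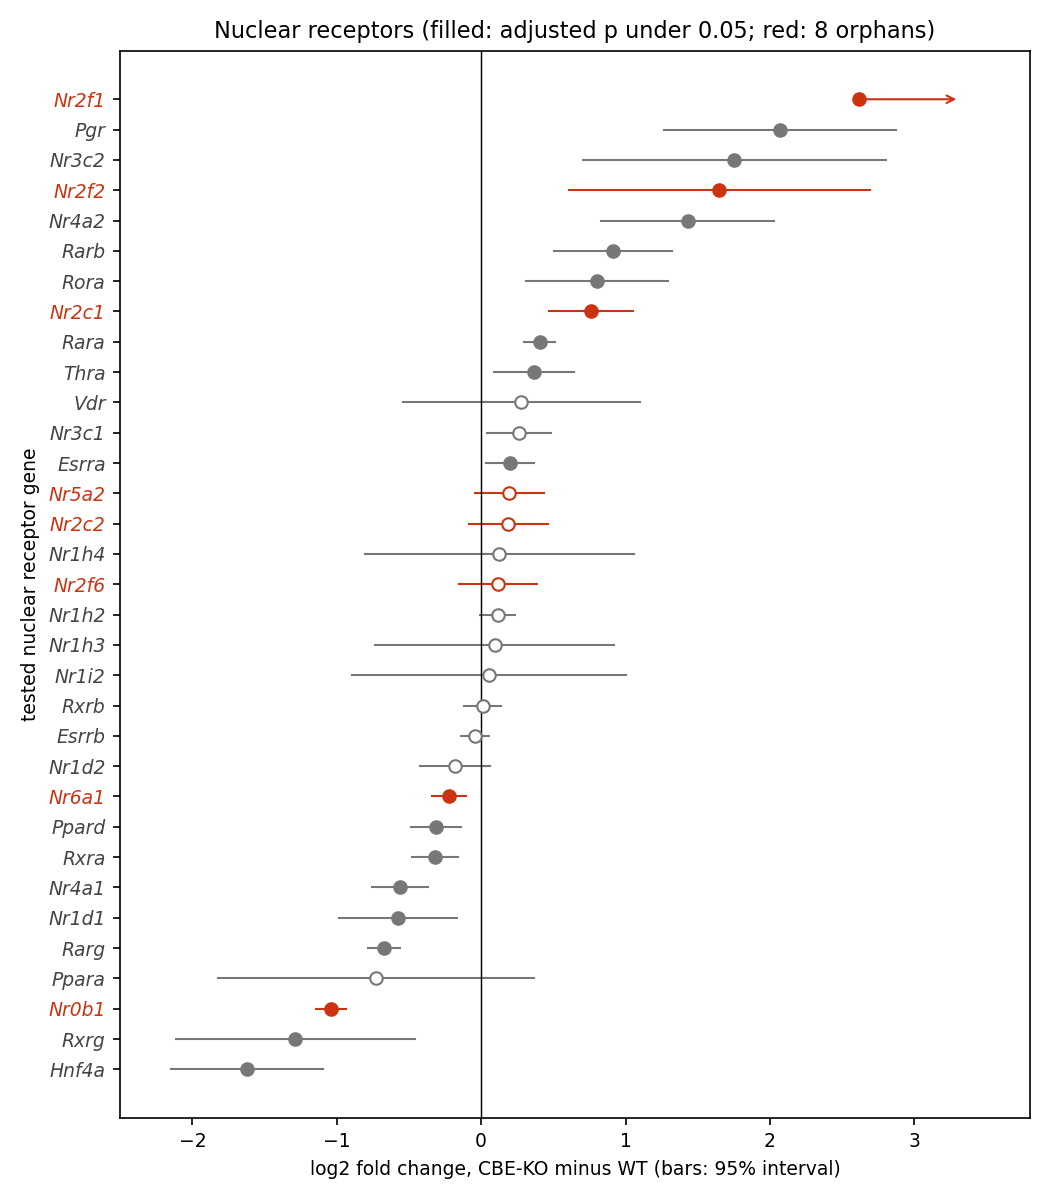
Log2 fold change, CBE-KO minus WT, of 33 of the 34 tested nuclear receptor genes with 95% intervals (filled points: adjusted p under 0.05; red: the 8 orphan receptors; grey: other receptors). Nr2f1 is drawn at its lower bound with an arrow. Nr0b1 at -1.04 has a short interval, and those of Nr5a2, Nr2c2 and Nr2f6 include 0.

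Ratios of counts within a library do not depend on how libraries are scaled. They were compared only between libraries, since genes differ in length, and with 2 libraries against 2 an exact two-sided permutation test cannot go below p = 0.333. Nr0b1 had 11.6 and 11.8 counts per count of Nr5a2 in WT and 5.25 and 4.73 in CBE-KO. Relative to Pou5f1, Nr0b1 went from 0.187 and 0.210 in WT to 0.119 and 0.123 in CBE-KO, so it was lower also against the fall of Pou5f1. The ratio of Nr2c1 to Nr2c2 was 0.872 and 0.733 in WT and 1.24 and 1.15 in CBE-KO. In these 3 ratios the groups did not overlap. For Nr6a1 per Pou5f1 they did, with 0.150 and 0.181 in WT and 0.185 and 0.171 in CBE-KO. Against Nr6a1, Nr5a2 was at 0.107 and 0.0983 in WT and at 0.123 and 0.152 in CBE-KO. Nr2f6 per Nr6a1 was 0.0831 and 0.0706 in WT and 0.0921 and 0.103 in CBE-KO. In both ratios to Nr6a1 the groups did not overlap either. How often the groups do not overlap in ratios of other gene pairs was not counted.

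**Figure D3:**
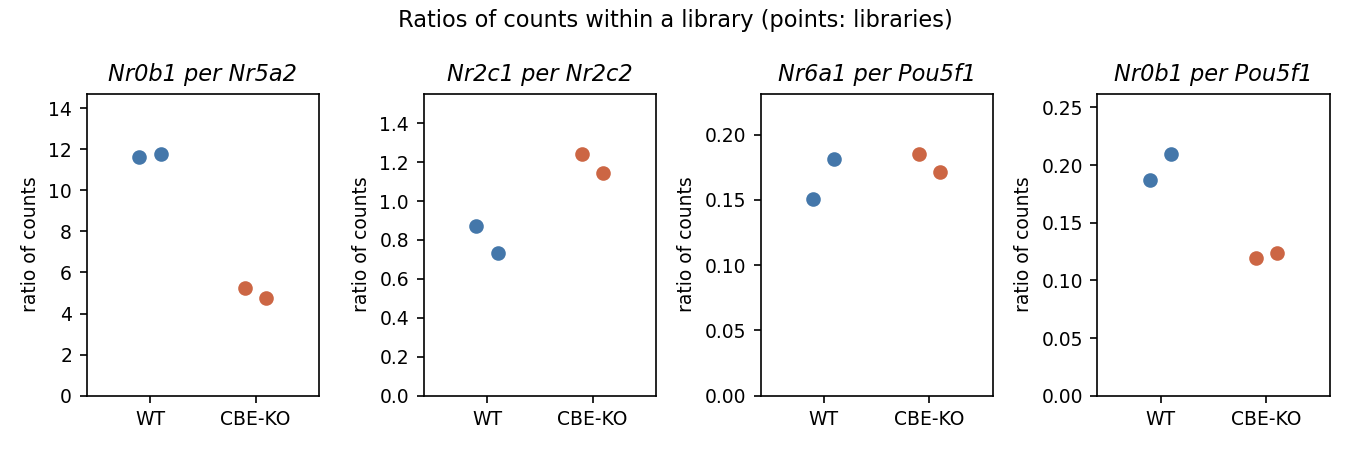
Ratio of counts of 2 genes within each library (points; blue WT, orange CBE-KO; axes from 0). Nr0b1 per Nr5a2 is 11.6 and 11.8 in WT and 5.25 and 4.73 in CBE-KO, and the groups overlap for Nr6a1 per Pou5f1.

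The other nuclear receptors put these values in context. Of 41 such genes, 26 were tested and 16 passed, 9 higher and 7 lower. Of the 22 above the filter in both groups 13 passed, 6 higher and 7 lower, beside the 44.2% of all genes of that kind. The median log2 fold change of the 26 was 0.10 beside 0.01 over all tested genes, and 1 library could turn its sign: it was -0.019 without WT replicate 2, 0.23 without WT replicate 1 and 0.042 without CBE-KO replicate 2, and 0.21 with library totals. DESeq2 called 9 of them. Among those above 5 CPM in the higher group, Hnf4a, a receptor of liver and visceral endoderm, fell by 1.62 ± 0.25 (log2, SE). Rarg, the retinoic acid receptor gamma gene, averaged 478 ± 27.7 in WT against 299 ± 14.2 CPM (SD, n = 2 each), which is -0.68 ± 0.05 on the log2 scale (SE; edgeR adjusted p = 1.77e-08). Rarb, the beta gene and itself a target of retinoic acid, rose by 0.91 ± 0.19 (log2, SE). Nr4a2, an orphan receptor induced by many signals, rose by 1.43 ± 0.28 (log2, SE). The WT counts of Nr4a2 were 20 and 40, and its rise was 0.98 without WT replicate 1 and 2.06 without WT replicate 2. Esrrb, which shares the extended core motif with Nr5a2 and supports naive pluripotency, was counted 6914 and 6759 times in WT against 7544 and 6879 in CBE-KO. The difference on the log2 scale was -0.04 ± 0.05 (SE; edgeR adjusted p = 0.504) with TMM scaling and turned to 0.06 with library totals.

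Among Oct4 partners and targets, more genes fell than rose. Of 20 genes in a list of Pou5f1 with its partners and targets, 19 were tested and 15 passed, 4 higher and 11 lower. The median log2 fold change of the 19 was -0.33. Over all tested genes 21.6% were higher and 21.5% lower. With library totals 16 of the list passed, 6 higher and 10 lower, and its median was -0.23. That median was -0.25 without WT replicate 1 and -0.28 without WT replicate 2, with TMM scaling. Utf1, a chromatin factor that Oct4 and Sox2 switch on, was 1.67 ± 0.05 lower on the log2 scale (SE), and Tdgf1, a Nodal co-receptor, 1.20 ± 0.05 lower. Sall4 and Zscan10, both pluripotency zinc-finger genes, had log2 fold changes of -0.94 ± 0.05 and -0.74 ± 0.07 (SE). Sox2 and Fgf4 had values close to that of Pou5f1, -0.35 ± 0.05 and -0.34 ± 0.05 (SE). Nanog was higher by 0.15 ± 0.04 (SE; edgeR adjusted p = 0.0107), a call lost without either CBE-KO library (edgeR adjusted p = 0.0573 and 0.151).

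Proteins that nuclear receptors recruit were compared as a further list. Of 33 coregulator genes, 30 were tested and 13 passed, 5 higher and 8 lower, which is 43.3% and near the 43.1% of all tested genes, and their median was 0.02. That median was -0.011 without WT replicate 2 and 0.13 with library totals. With library totals 22 passed, 15 higher and 7 lower, so the balance of this list depended on the scaling. Dnmt3b, a DNA methyltransferase that Nr6a1 is known to bring to Pou5f1, averaged 189 ± 4.27 in WT against 86.4 ± 0.555 CPM (SD, n = 2 each), which is -1.13 ± 0.05 on the log2 scale (SE; edgeR adjusted p = 1.74e-11). Dnmt3a, the related enzyme, fell by 0.57 ± 0.05 (log2, SE). Ncoa3, a coactivator that supports self-renewal, fell by 0.72 ± 0.05, and Nrip1, a corepressor induced by retinoic acid, rose by 0.68 ± 0.08 (log2, SE). The corepressor genes Ncor1 and Hdac3 had log2 fold changes of 0.05 and 0.10 that did not pass with TMM scaling and passed with library totals.

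Genes that make, break down or answer to retinoic acid rose in most cases. Of 20 genes, 18 were tested and 15 passed, 13 higher and 2 lower, beside the same 21.6% and 21.5% of all tested genes, with a median log2 fold change of 0.77. Cyp26a1, an enzyme that degrades retinoic acid, was higher by 1.70 ± 0.05 (log2, SE). Stra6, which takes up retinol, was higher by 1.39 ± 0.09, and Crabp2, which carries retinoic acid to its receptors, by 1.23 ± 0.18 (log2, SE). Tshz1, a zinc-finger gene, was counted 14 and 14 times in WT against 155 and 120 in CBE-KO, a difference of 3.16 ± 0.25 on the log2 scale (SE; edgeR adjusted p = 2.69e-08).

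Markers of other cell types were summed per library in TMM-scaled CPM and counted by the same test. Of 10 neuroectoderm markers, 7 were above the expression filter in both groups, and 6 of these passed, 5 higher and 1 lower, beside 44.2% of all genes of that kind. Another 2, Pax6 with 10 and 9 counts in WT and Zfp521 with 4 and 4, were tested only through CBE-KO, where they had to be higher. The neuroectoderm sum was 113 to 123 CPM in WT and 124 to 125 in CBE-KO. Much of this sum was Tubb3, the marker that passed as lower, with a mean of 69.4 CPM in WT and 40.8 in CBE-KO. Of 11 extraembryonic endoderm markers, 9 were above the filter in both groups and 6 of these passed, all 6 as higher. The sum of the 11 was 209 to 218 CPM in WT and 269 to 274 in CBE-KO. Hnf4a, a gene of visceral endoderm that is not in this list, was lower (-1.62 ± 0.25, log2, SE). Of 9 mesoderm markers, 3 were above the filter in both groups and 0 of these passed by edgeR, also at an unadjusted p under 0.05, and DESeq2 called 0 genes of the list. The mesoderm gene Kdr, counted 6 and 6 times in WT against 15 and 22 in CBE-KO, passed in edgeR but was tested only through CBE-KO. The mesoderm sum was 18.3 to 18.5 CPM in WT and 20.8 to 20.9 in CBE-KO. For 9 trophoblast markers the sums overlapped, at 91.6 to 102 CPM in WT and 101 to 103 in CBE-KO. In edgeR 3 of the 5 trophoblast markers above the filter in both groups passed, 2 higher and 1 lower, and DESeq2 called 1, as lower. The neural crest gene Pax3 and the endoderm genes Afp and Ttr were at or near 0, with at most 4 counts in any library. The part of these cells in the values of the receptors was not tested, and in bulk RNA fewer cells of a type and less RNA per cell cannot be told apart.

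Genes with the most similar pattern over the 4 libraries were sought by the root mean square difference of log2 CPM centred on each gene's mean, among 14603 genes. None are given for Nr2f1, the receptor with the largest rise, because its WT counts of 1 and 0 lie below the floor and its distances to other genes depend on the prior count of 2. For Nr0b1, the receptor with the largest fall, they were Dok4 (0.0098), Lrrc2 (0.024) and Reep6 (0.025). Dok4 was counted 259 and 243 times in WT against 135 and 127 in CBE-KO. With 4 libraries in 2 groups, such likeness mostly restates the size of the difference between groups.

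**Figure D4:**
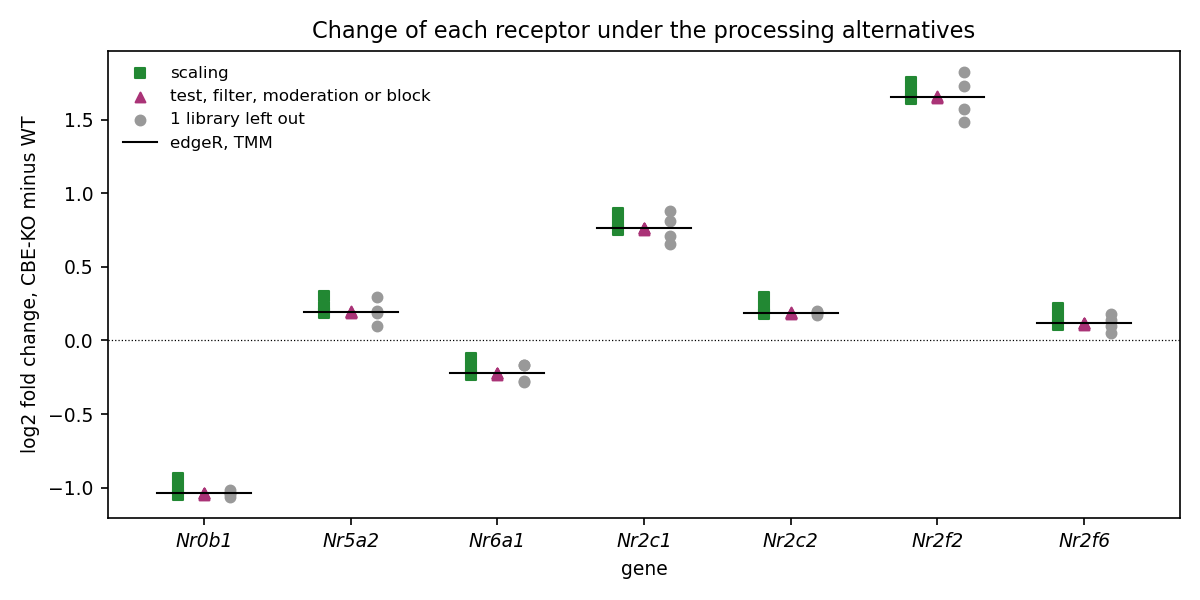
Log2 fold change, CBE-KO minus WT, of 7 receptor genes under the alternatives (green squares: scaling; purple triangles: test, filter, moderation or replicate block; grey circles: 1 library left out; black line: edgeR with TMM scaling). Nr2f1, given only as a lower bound, is not drawn. Nr6a1 spans -0.28 to -0.12 and Nr0b1 -1.06 to -0.93, and no gene crosses 0.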

How the data were processed

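Whole-number read counts per Ensembl gene were deposited by the authors as 1 table per library, without normalization. The submitters' processing notes name HISAT2 2.1.0, HTSeq 0.9.1, DESeq2 1.18.1, Bowtie2 2.3.1 and the build mm10, without their roles. Annotation release, use of strand and handling of reads that match several genes are not given in the sources used here. Symbols came from a supplied table (52403 of 52636 identifiers matched), and promoters and positions from RefSeq on GRCm38, the assembly of mm10, by symbol. Capture-C samples were not analysed here.

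Genes were kept with edgeR's filterByExpr (minimum count 10; 16005 genes), scaled by TMM and tested with glmQLFit and glmQLFTest in edgeR 4.0.16 (R 4.3.3), two-sided, without covariates. P-values were adjusted by Benjamini-Hochberg over all tested genes, with a threshold of 0.05. Depths and the floor of 3 counts are in the report, and floors cover counting error only. Intervals are 95% from the moderated fit. Alternatives were DESeq2 1.42.0, 3 scalings, 2 filters, robust moderation, a replicate block, 2 stricter thresholds and each library left out. Scripts were tested on simulated counts.

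The receptors and lists were chosen with earlier results of these data known. Beside the receptors, Pou5f1 and checks, the text names by rule the 4 genes that differed most in log2 terms, past the threshold and at 5 CPM or more in the higher group, from each of 4 lists, and the 3 genes most like Nr0b1 (those most like Nr2f1, also in the rule, are left out since its WT counts are below the floor). Other genes of the lists named in the text (Esrrb, Sox2, Fgf4, Nanog, Ncor1, Hdac3, Pax3, Pax6, Zfp521, Tubb3, Kdr, Afp, Ttr) were chosen after their values were seen. Values of some genes of the lists are not reported here.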

Additional observations from a re-analysis of the deposited data

How the results depend on the processing

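No receptor changed direction under any of its alternatives. Of 110 values from 8 receptors, 101 kept their direction and their side of the threshold. These include the 2 stricter thresholds, which reuse the edgeR fit with TMM scaling and so could not change a direction. Nor could they change the side of a receptor that had not passed. Nr2f2 did not pass in DESeq2 (1.66) or at an adjusted p under 0.01 (1.65), and Nr2f1 and Nr2f2 were not tested with a mean of at least 1 CPM, which left 3 receptors called, as did requiring a log2 difference of 1 or more, which Nr6a1 (-0.22) and Nr2c1 (0.76) did not reach. With library totals alone Nr6a1 did not pass (-0.12), Nr5a2 passed (0.30) and Ctcf changed sign (0.056), while the median of all genes moved to 0.11 and 67.0% of called genes were higher, against 50.2% with TMM. Leaving out 1 library gave 3 to 5 receptors called, with log2 fold changes of 1.48 to 1.82 for Nr2f2 and -0.28 to -0.16 for Nr6a1; the lone library of a group was then assumed to vary like the other group. Esrrb was at 0.063 with library totals. The cause of these shifts was not tested.

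Over all genes, 6895 were called, 4577 in DESeq2 and 1383 with the fold minimum. DESeq2 called 9 other nuclear receptors. With the fold minimum the lists had 6 other receptors, 1 coregulator, 2 Oct4 partners or targets and 5 retinoic acid genes called, and library totals gave 22 coregulators. With the replicate block 7027 genes and 5 receptors were called, Nr0b1 at -1.04, Nr2c1 at 0.76 and Nr6a1 at -0.22, and it changed no call of a receptor. Deviations of same-numbered libraries had a correlation of 0.035, and nothing states that the numbers pair them. At 0 to 22 counts per library, depth limits what Nr2f1 and Nr2f2 can show.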

Other observations

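A pair of steroid hormone receptor genes that stem cells barely express had low counts in WT and more in CBE-KO. They were chosen after their values were seen, and both passed the expression filter only through CBE-KO. Pgr, the progesterone receptor gene, was counted 7 and 11 times in WT against 46 and 37 in CBE-KO, a difference of 2.07 ± 0.38 on the log2 scale (SE; edgeR adjusted p = 0.000286). Nr3c2, the mineralocorticoid receptor gene, was counted 4 and 7 times against 23 and 18 (1.75 ± 0.50, log2, SE). Nr3c2 missed the threshold by DESeq2 (adjusted p = 0.0896) and without WT replicate 1 or CBE-KO replicate 1 (edgeR adjusted p = 0.0686 and 0.0557).

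The other tested genes within 1 Mb of each receptor gene were counted beside the 43.1% called over all tested genes. Around Nr2f6, 28 of 60 passed (46.7%), 7 higher and 21 lower. Around Nr2c1, 8 of 18 passed (44.4%), 6 higher and 2 lower, and around its relative Nr2c2, 10 of 17 (58.8%), 4 higher and 6 lower. Around Nr6a1, 4 of 10 passed, 2 in each direction, and around Nr5a2, 3 of 11 (27.3%), 2 higher and 1 lower. Around Pou5f1, 46 of 81 passed (56.8%), 15 higher and 31 lower. These shares were not tested against the background. Nr2f2 had no other tested gene within 1 Mb, and Nr2f1 had 1.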
